A study of Mus musculus with 6 samples.

Results

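The genes described here encode enzymes of the tricarboxylic acid cycle, the mitochondrial pathway that oxidizes acetyl-CoA to carbon dioxide. They are Cs, Idh2, Idh3a, Ogdh, Dlst, Sucla2, Suclg1, Fh1 and Mdh2, chosen by pathway and measured by the transcript cluster that carries the gene's symbol alone on the array platform. Each of the 9 genes had a single such cluster, and all 9 lay past the filter on low values, among 22087 genes tested. RNA was taken from whole kidneys of female Pkd1 miR transgenic mice at postnatal day 63, on 1 array per animal. These mice model polycystic kidney disease, with a transgene directed at Pkd1 that both groups carry, and no mice without it are among the 6 samples. The sources used here do not give the promoter that drives the transgene. Saline was injected into 3 mice, and 3 mice received metformin into the peritoneum at 150 mg per kg per day, both from postnatal day 35 to day 63. Metformin is a biguanide drug for diabetes that is known to inhibit mitochondrial complex I and to activate AMPK.

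The cycle joins acetyl-CoA to oxaloacetate, oxidizes the resulting citrate stepwise and regenerates oxaloacetate, passing electrons to NADH and to the succinate dehydrogenase of the respiratory chain. In the kidney the proximal tubule and the thick ascending limb are rich in mitochondria, and the cycle there burns fatty acids, lactate, glutamine and citrate to power solute transport. Its intermediates also leave and enter through gluconeogenesis, amino acid breakdown and ammonia formation.

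The promoters of the gene that stayed called in each alternative analysis (Cs) and of 2 subunits of 1 enzyme, succinyl-CoA ligase, of which Sucla2 was called and Suclg1 was not, are shown so that the features below can be read in them. Each sequence is the 250 bases before the RefSeq start on assembly GRCm38.p6, all on the plus strand, at chr10:128337477-128337726 for Cs, chr14:73552536-73552785 for Sucla2 and chr6:73248255-73248504 for Suclg1. Capitals mark matches to a GC box (GGGCGG) or a CCAAT box (CCAAT) on either strand.
Cs: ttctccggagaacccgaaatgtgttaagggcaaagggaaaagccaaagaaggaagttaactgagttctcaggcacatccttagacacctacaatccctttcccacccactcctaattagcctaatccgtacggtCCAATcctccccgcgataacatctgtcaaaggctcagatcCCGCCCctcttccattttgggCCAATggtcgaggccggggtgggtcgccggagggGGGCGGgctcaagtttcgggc
Sucla2: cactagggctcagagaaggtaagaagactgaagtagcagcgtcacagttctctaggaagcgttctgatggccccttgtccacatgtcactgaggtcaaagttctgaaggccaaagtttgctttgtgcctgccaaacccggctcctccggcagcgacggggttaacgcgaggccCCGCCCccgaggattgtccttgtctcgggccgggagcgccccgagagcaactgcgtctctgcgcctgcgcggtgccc
Suclg1: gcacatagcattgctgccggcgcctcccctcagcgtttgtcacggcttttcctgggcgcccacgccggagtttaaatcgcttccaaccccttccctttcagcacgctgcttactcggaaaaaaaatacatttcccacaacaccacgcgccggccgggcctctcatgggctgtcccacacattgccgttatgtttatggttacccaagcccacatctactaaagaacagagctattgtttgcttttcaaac

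The Cs window holds 2 GC boxes and 2 CCAAT boxes, the Sucla2 window holds 1 GC box, and the Suclg1 window matches neither. RefSeq windows were found for 8 of the 9 genes, Idh3a having no entry and Ogdh having 6 start sites. A gene was counted if any of its windows matched, so Ogdh could match in any of 6. The shares of all windows are of single windows and so not the same measure. A GC box was present before 7 of the 8 genes and in 32.7% of all 32851 promoter windows, and CCAAT before 4 of the 8 and in 33.8% of all windows. The cyclic AMP response element TGACGTCA was found before Mdh2 and Ogdh, against 1.55% of all windows. The letters TCAAGGTCA (estrogen-related receptors), the NRF1 palindrome (GCGCA followed directly by TGCGC) and the PPAR direct repeat (AGGTCA, any base, AGGTCA) were found on neither strand before any of the 8 genes, and in 0.387%, 0.782% and 0.0335% of all windows. Only these exact letters were searched, and variants were not counted. The Sucla2 window, for example, holds the NRF1 palindrome with 1 base changed (GCGCC followed directly by TGCGC). Matches describe letters in these windows and were not tested as binding sites.

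The comparison asks which of these transcripts differ in the kidney after metformin. Citrate synthase, the NAD-dependent isocitrate dehydrogenase subunit Idh3a and the succinyl-CoA ligase subunit Sucla2 fell, by 1.63-fold, 1.54-fold and 1.56-fold. The other 6 genes did not pass the test, and their mean values were also lower with metformin, with changes between -0.46 and -0.23 on the log2 scale. Of the 9 genes 3 were therefore called lower and 0 higher by limma at a Benjamini-Hochberg adjusted p under 0.05, where 9.08% of all genes tested were called lower, 6.71% higher and 15.8% in either direction. At an unadjusted p under 0.05, 7 of the 9 were lower and 0 higher, against 32.1% of all genes in either direction. In 7 of the 9 genes every metformin array lay below every saline array, against 19.4% of all genes, and 37.3% of all genes were separate in either direction. The median change of the 9 genes was -0.45, beside a median of 0.02 over all genes tested. All values are the deposited log2 expression, changes are metformin minus saline, folds hold on the deposited scale, which may be stretched since values reach 19.9, and each SE comes from limma's model. In whole tissue, fewer cells of a type and less RNA per cell cannot be told apart.

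**Figure D1:**
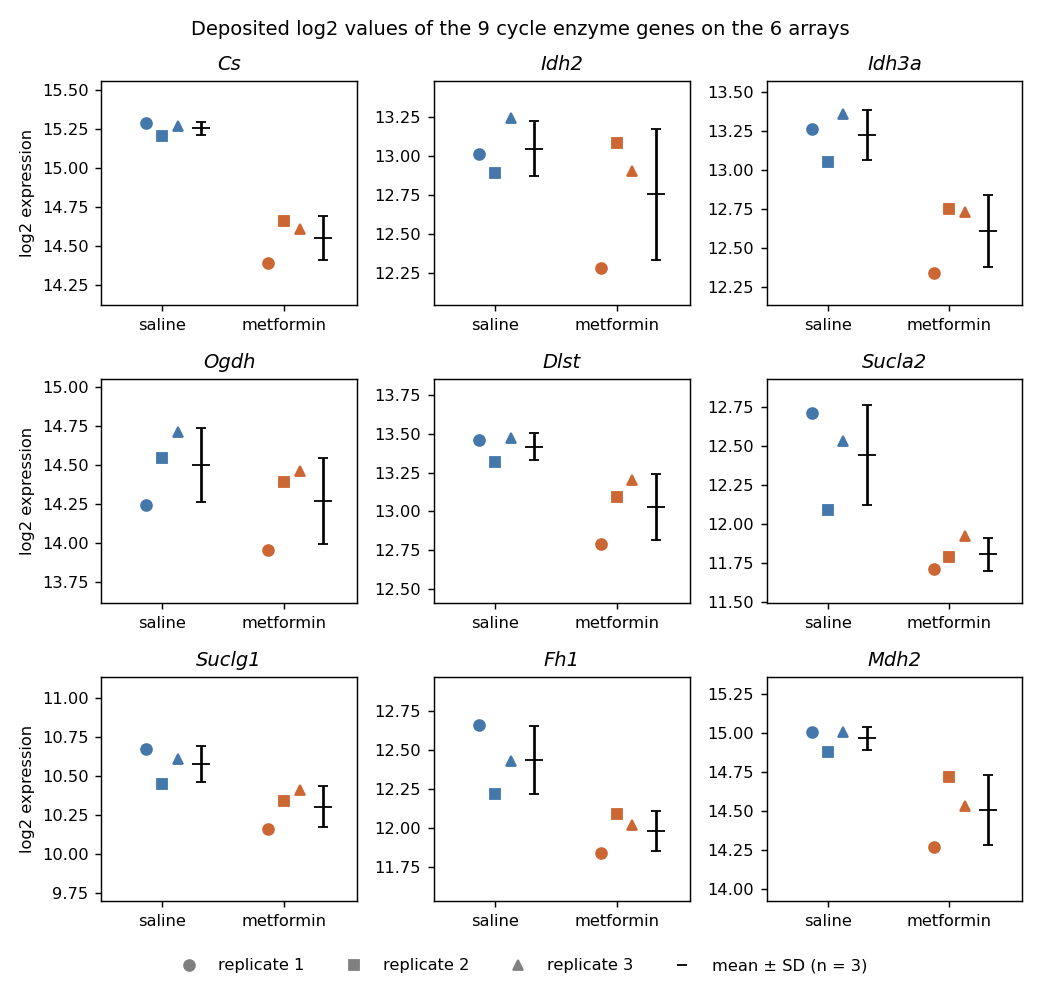
Log2 expression (vertical axis, each panel spanning the same range) of the 9 genes on the 3 saline and 3 metformin arrays, with symbols for the replicate number and the mean ± SD beside each group. The groups are separate in 7 panels and overlap for Idh2 and Ogdh, and metformin replicate 1 is the lowest array in all 9 panels.

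Citrate synthase (Cs) makes citrate from acetyl-CoA and oxaloacetate and starts the cycle. Its log2 values, in the order of the replicate numbers as below, were 15.29, 15.21 and 15.27 with saline and 14.39, 14.66 and 14.61 with metformin. The saline arrays lay close together, and the highest metformin array was 0.55 below the lowest saline array. The mean went from 15.26 ± 0.04 to 14.55 ± 0.15 (SD, n = 3 per group), a change of -0.71 ± 0.10 (SE) with a limma adjusted p = 0.00949. The symbol Csl, citrate synthase like, has a cluster that the filter on low values left out, and whether probes of one also read the other was not tested.

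Isocitrate is oxidized in mitochondria by an NAD-dependent enzyme with 3 kinds of subunit and by a separate NADP-dependent enzyme. Idh3a, the catalytic subunit of the first, had log2 values of 13.26, 13.05 and 13.36 on the saline arrays and 12.34, 12.75 and 12.73 on the metformin arrays. The groups were separate, with metformin replicate 1 well below the other 5 arrays, and the change was -0.62 ± 0.14 (SE, limma adjusted p = 0.0304). Idh2, the NADP-dependent enzyme, which supplies mitochondrial NADPH, had 13.01, 12.89 and 13.24 with saline and 12.28, 13.08 and 12.90 with metformin. Its groups overlapped, since metformin replicates 2 and 3 lay among the saline arrays and replicate 1 alone lay below them. The change of Idh2 was -0.29 ± 0.21 (SE, limma adjusted p = 0.379), with a 95% interval of -0.78 to 0.19. Without metformin replicate 1 it was -0.06.

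The 2-oxoglutarate dehydrogenase complex follows, with Ogdh as the decarboxylating subunit and Dlst as the succinyltransferase core. Ogdh had log2 values of 14.24, 14.54 and 14.71 with saline and 13.95, 14.39 and 14.46 with metformin. Saline replicate 1 lay below metformin replicates 2 and 3, and the change of -0.23 ± 0.17 (SE) did not pass (limma adjusted p = 0.414). Its 95% interval was -0.63 to 0.18, and its value ran from -0.36 without saline replicate 1 to -0.07 without metformin replicate 1. Dlst had 13.46, 13.32 and 13.47 with saline and 12.79, 13.09 and 13.20 with metformin. The groups of Dlst were separate by 0.12, and its change of -0.39 ± 0.13 (SE) did not pass either (limma adjusted p = 0.0767).

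Succinyl-CoA ligase forms succinate together with ATP or GTP: Suclg1 is the alpha subunit common to its forms, and Sucla2 is the beta subunit of the ATP-forming one. Sucla2 had log2 values of 12.71, 12.09 and 12.53 on the saline arrays and 11.71, 11.79 and 11.92 on the metformin arrays. Saline replicate 2 lay closer to the metformin arrays than to the other saline arrays, with 0.17 between the groups. The change of Sucla2 was -0.64 ± 0.16 (SE, limma adjusted p = 0.0400), and -0.81 without saline replicate 2. Suclg1 had 10.67, 10.45 and 10.61 with saline and 10.16, 10.34 and 10.41 with metformin. Its groups were separate by 0.04, and its change of -0.27 ± 0.11 (SE) did not pass (limma adjusted p = 0.133). In their promoters, shown above, a GC box precedes Sucla2 and none precedes Suclg1. A GC box also precedes Dlst, Fh1, Idh2, Mdh2 and Ogdh, which were not called, so it does not separate called from uncalled genes.

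Fumarase, encoded by Fh1 for both mitochondria and cytosol, hydrates fumarate to malate, and Mdh2 oxidizes malate to oxaloacetate in mitochondria. Fh1 had log2 values of 12.66, 12.22 and 12.43 with saline and 11.84, 12.09 and 12.02 with metformin. Mdh2 had 15.01, 14.88 and 15.01 with saline and 14.27, 14.72 and 14.53 with metformin. Neither gene's groups overlapped, and in Mdh2 the metformin arrays spread more widely than the saline arrays. The changes were -0.45 ± 0.14 (SE, limma adjusted p = 0.0622) for Fh1 and -0.46 ± 0.13 (SE, limma adjusted p = 0.0531) for Mdh2, both short of the threshold, with 95% intervals of -0.77 to -0.13 and -0.76 to -0.15.

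Most of these calls did not hold in the fits that left out 1 array. Over all genes tested, 3488 were called with all 6 arrays. The number was 3961 without saline replicate 2 and between 842 and 1965 without any other array. Cs was called in each of the 6 fits that left out 1 array, with changes of -0.76 to -0.62 and limma adjusted p = 0.0134 to 0.0437. Idh3a and Sucla2 were called only without saline replicate 2 (limma adjusted p = 0.0251 and 0.0105). Leaving out any other array ended both calls, with limma adjusted p = 0.0536 to 0.104 for Idh3a and 0.0689 to 0.122 for Sucla2. Fh1 was called without saline replicate 2 (limma adjusted p = 0.0305). In these 6 fits the changes of all 9 genes stayed below 0. Leaving out 1 array could have reversed the sign only for Idh2 and Ogdh, whose groups overlap.

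**Figure D2:**
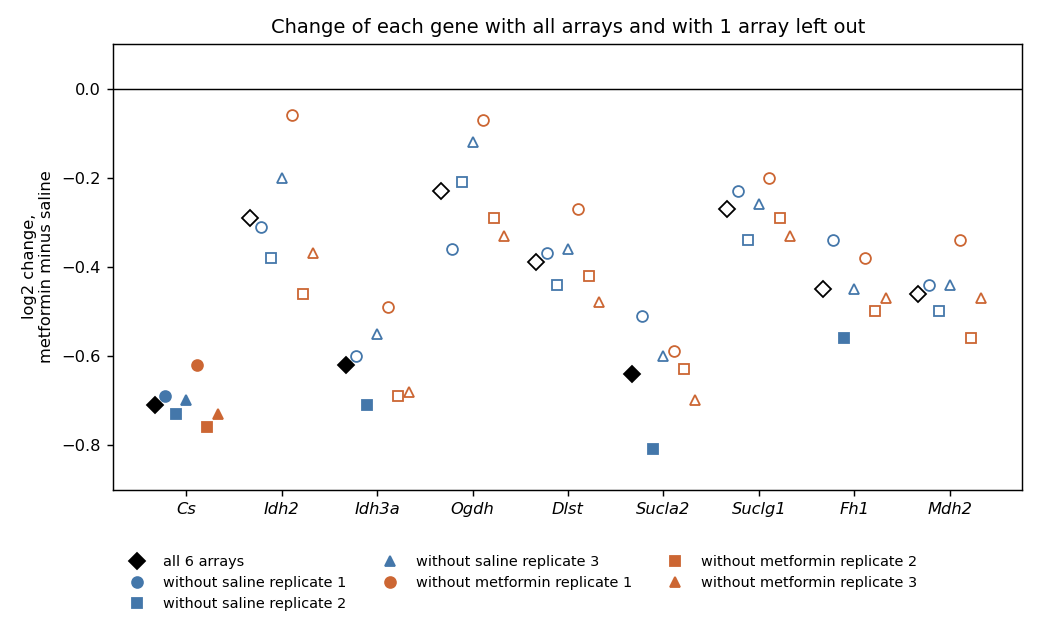
Log2 change, metformin minus saline (vertical axis), of each of the 9 genes with all 6 arrays (diamonds) and with 1 array left out (blue for a saline array, orange for a metformin array). Filled symbols have a limma adjusted p under 0.05: Cs is filled in each fit, Idh3a and Sucla2 with all arrays and without saline replicate 2, and Fh1 without saline replicate 2.

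The arrays ranked alike for these genes. Metformin replicate 1 was the lowest of the 6 arrays in 9 of 9 genes, against 18.6% of all genes tested. Saline replicate 2 was the lowest saline array in 8 of 9, against 37.9% of all genes, the exception being Ogdh. Averaged over the 9 genes, the deviation from each gene's own mean was 0.28, 0.09 and 0.31 for saline and -0.46, -0.10 and -0.12 for metformin. The step between the closest arrays of the groups, saline replicate 2 and metformin replicate 2, was thus smaller than the gap from metformin replicate 1 to the other metformin arrays.

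Values of pairs of genes within an array are given as a description, with no test. Over 10 pairs, chosen after their values were seen, the difference of their deviations was taken on each array, and the groups were separate for 7 pairs and overlapped for 3. Cs minus Ogdh was 0.52, 0.15 and 0.04 with saline and -0.09, -0.25 and -0.38 with metformin, so citrate synthase was lower relative to Ogdh on every metformin array. Sucla2 minus Suclg1 was 0.35, -0.04 and 0.24 against -0.13, -0.24 and -0.18. Idh3a minus Idh2 was 0.23, 0.15 and 0.10 against 0.04, -0.34 and -0.19. For Ogdh minus Dlst, the subunits of 1 complex, the groups overlapped, with -0.37, 0.05 and 0.08 against 0.00, 0.14 and 0.10.

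Other subunits of the cycle's enzymes were tested through 8 genes. Of the 8, 4 fell, 0 rose and 4 did not pass (limma, 7 lower and 0 higher at an unadjusted p under 0.05), with a median of -0.57. The succinate dehydrogenase anchor subunit Sdhd fell by 1.29, the isocitrate dehydrogenase subunit Idh3b by 0.96, the dihydrolipoamide dehydrogenase Dld by 0.68 and the GTP-forming succinyl-CoA ligase subunit Suclg2 by 0.66. Sdhb, the iron-sulfur subunit of succinate dehydrogenase, had a change of -0.47 (limma adjusted p = 0.0560), and Idh3g, a further Idh3 subunit, one of -0.34 (limma adjusted p = 0.138). In all 8 genes every metformin array lay below every saline array, against 19.4% of all genes tested. With the 9 genes above, 7 of 17 cycle subunits fell, where 9.08% of all genes were called lower. At an unadjusted p under 0.05 the share of all genes was 32.1% in either direction. The calls of Idh3b and Sdhd held in each fit that left out 1 array, while those of Dld and Suclg2 ended without saline replicate 1 (limma adjusted p = 0.150 and 0.0768) or metformin replicate 1 (0.126 and 0.0614). That of Dld held only when saline replicate 2 was left out, with 0.0538 to 0.110 for the remaining 3 arrays.

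**Figure D3:**
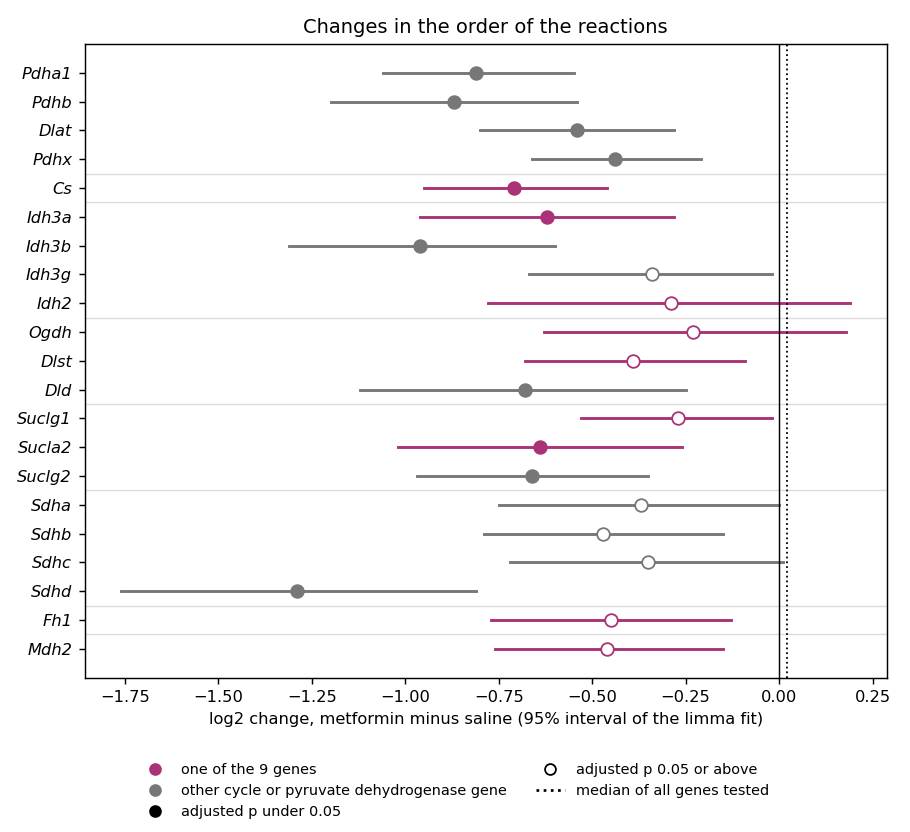
Log2 change, metformin minus saline (horizontal axis), with the 95% interval of the limma fit, for pyruvate dehydrogenase and the cycle's subunits from top to bottom in the order of the reactions, separated by grey lines. Filled circles passed an adjusted p under 0.05, every circle lies left of 0, and Sdhd lies farthest left at -1.29.

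Subunits of 1 enzyme are set side by side here, with no test of their differences. Within the NAD-dependent isocitrate dehydrogenase the changes were -0.62 for Idh3a, -0.96 for Idh3b and -0.34 for Idh3g, with 95% intervals that overlap (-0.96 to -0.28, -1.31 to -0.60 and -0.67 to -0.02). On each array Idh3b was taken relative to Idh3g, which gave 0.51, 0.17 and 0.24 with saline and -0.23, -0.30 and -0.39 with metformin, without overlap. In succinyl-CoA ligase the beta subunits had similar changes, -0.64 for Sucla2 and -0.66 for Suclg2, and the arrays' differences between them overlapped, with 0.08, -0.17 and 0.06 against 0.11, -0.13 and 0.06.

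The cytosol holds enzymes for some of the same reactions. A list of cytosolic counterparts and of paralogs, not all of them cytosolic, was tested through 6 genes, with a median of -0.44. Of these 2 fell, 0 rose and 4 did not pass, where 9.08% of all genes were called lower. At an unadjusted p under 0.05 by limma 4 were lower and 0 higher, against 32.1% of all genes in either direction. NADP-dependent Idh1, the cytosolic partner of Idh2, fell by 0.76 (limma adjusted p = 0.0144), and cytosolic malate dehydrogenase Mdh1 fell by 0.49 (limma adjusted p = 0.0463), next to -0.46 for Mdh2. On each array Idh2 relative to Idh1 was -0.32, -0.21 and -0.17 with saline and -0.03, 0.46 and 0.26 with metformin, without overlap. Mdh2 relative to Mdh1 overlapped, at -0.01, 0.07 and -0.11 against -0.01, 0.19 and -0.13. Dhtkd1, a relative of Ogdh in lysine breakdown, had a change of -0.63 (limma adjusted p = 0.0536, and 0.0452 with the replicate block), and Aco1, the cytosolic aconitase, one of -0.40 (limma adjusted p = 0.113, and 0.0463 with the block). The call of Idh1 ended without saline replicate 1 (limma adjusted p = 0.0620), and that of Mdh1 held only without saline replicate 2, with 0.0565 to 0.141 in the other 5 fits.

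Pyruvate enters the cycle through the mitochondrial pyruvate carrier and pyruvate dehydrogenase. Of 12 genes tested in this list 7 fell, 0 rose and 5 did not pass, where 9.08% of all genes were called lower. The median was -0.49. At an unadjusted p under 0.05 by limma 8 were lower and 0 higher, against 32.1% of all genes in either direction. The pyruvate dehydrogenase subunits Pdha1 (-0.81), Pdhb (-0.87), Dlat (-0.54) and Pdhx (-0.44) all fell. Pdk3, a kinase that inactivates the complex, fell by 0.70, and the reactivating phosphatase Pdp2 and the phosphatase regulatory subunit Pdpr fell by 0.56 and 0.54. The phosphatase Pdp1 had a change of 0.06 (limma adjusted p = 0.691). Pdk4, the kinase best known for its response to fasting, had values of 10.75, 11.53 and 9.85 with saline and 10.18, 11.17 and 10.57 with metformin, with overlapping groups and a 95% interval of its change of -1.05 to 0.91. Of the 7 calls, that of Pdha1 held in each fit that left out 1 array. Among the others, the number of calls that ended was 6 when saline replicate 1 was left out, 1 for saline replicate 2, 5 for saline replicate 3, 5 each for metformin replicates 1 and 2, and 4 for metformin replicate 3.

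**Figure D4:**
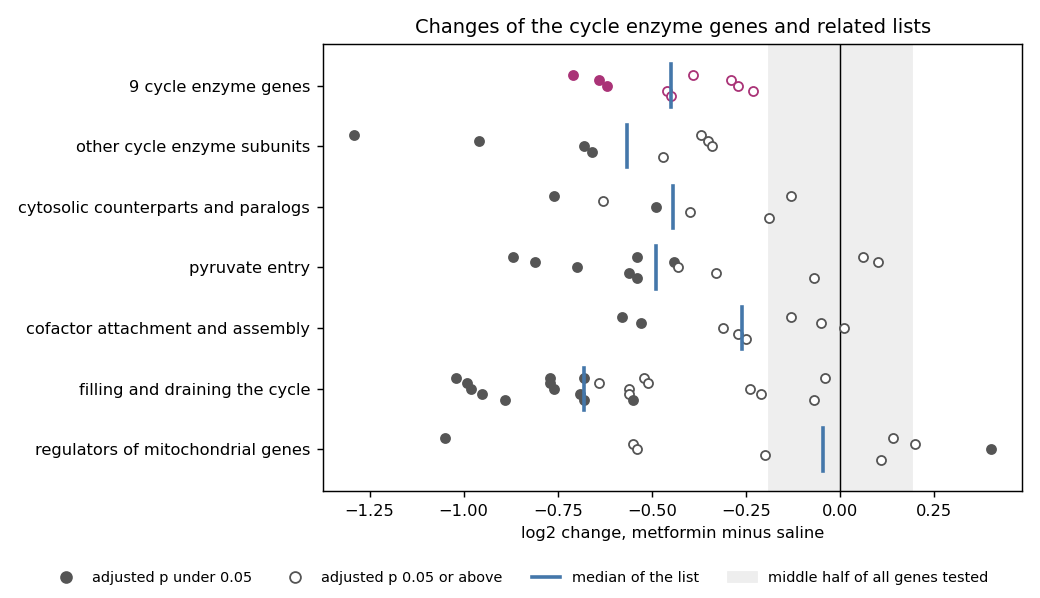
Log2 change, metformin minus saline (horizontal axis), of each tested gene of the 9 cycle enzymes and of the 6 related lists, with filled circles for a limma adjusted p under 0.05 and a bar at each list's median. The grey band spans the quartiles of all genes tested, -0.19 to 0.19, and all 9 cycle enzyme genes lie to its left.

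Routes that fill or drain the cycle were tested through 21 genes, with a median of -0.68. Of these 12 fell, 0 rose and 9 did not pass, where 9.08% of all genes were called lower. At an unadjusted p under 0.05 by limma 15 were lower and 0 higher, against 32.1% of all genes in either direction. Propionyl-CoA carboxylase Pcca and Pccb and the methylmalonyl-CoA mutase Mmut, which feed succinyl-CoA, fell by 0.68, 1.02 and 0.95. Pyruvate carboxylase Pcx, which makes oxaloacetate, fell by 0.77, and malic enzyme Me1 by 0.99. The transaminases Got1 and Got2 fell by 0.77 and 0.68, together with the carriers of aspartate and glutamate Slc25a12 (-0.76) and Slc25a13 (-0.89), the oxoglutarate carrier Slc25a11 (-0.55) and the citrate carrier Slc25a1 (-0.69). D2hgdh, which returns D-2-hydroxyglutarate to 2-oxoglutarate, had 9.03, 8.91 and 9.22 with saline and 7.98, 8.21 and 8.05 with metformin, a change of -0.98 ± 0.12 (SE, limma adjusted p = 0.00735). Phosphoenolpyruvate carboxykinase Pck1 had a change of -0.56 (limma adjusted p = 0.164, and 0.0270 with the replicate block), and the transhydrogenase Nnt one of -0.64 (limma adjusted p = 0.0603, and 0.0237 with the block). Of the 12 calls those of Me1, Slc25a12 and D2hgdh held in each fit that left out 1 array. The number that ended was 9, 1 and 6 when saline replicates 1, 2 and 3 were left out in turn, and 5, 5 and 3 for metformin replicates 1, 2 and 3.

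Lipoic acid is attached to the Dlst and Dlat cores, and succinate dehydrogenase needs assembly factors. Of 8 genes for these steps 2 fell, 0 rose and 6 did not pass, with a median of -0.26. At an unadjusted p under 0.05 by limma 2 were lower and 0 higher, against 32.1% of all genes in either direction. Among all genes tested 9.08% were called lower, so these counts do not set the list apart. The lipoyltransferase Lipt1 fell by 0.58 and the lipoic acid synthase Lias by 0.53 (limma adjusted p = 0.0466, and 0.0555 with the replicate block). The assembly factors Sdhaf1, Sdhaf2, Sdhaf3 and Sdhaf4 had changes between -0.25 and 0.01. The call of Lias held only without saline replicate 2, with limma adjusted p = 0.0692 to 0.141 in the other 5 fits. That of Lipt1 ended without saline replicate 1 (0.0674) or metformin replicate 2 (0.0555).

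Regulators of mitochondrial genes were tested through 8 genes, without Esrra, which had no cluster with its symbol alone. Of the 8, 1 fell and 1 rose (limma, 3 lower and 1 higher at an unadjusted p under 0.05), with a median of -0.04. Over all genes tested 9.08% were called lower and 6.71% higher, so these counts do not set the list apart. Ppara, the fatty acid sensor, fell by 1.05 (limma adjusted p = 0.0312), and Nrf1, nuclear respiratory factor 1, rose by 0.40 (limma adjusted p = 0.0448). The coactivator Ppargc1a, known as the master regulator of mitochondrial genes, had 14.56, 14.38 and 14.54 with saline and 14.39, 14.64 and 14.78 with metformin, so its groups overlapped, with a 95% interval of its change of -0.18 to 0.40. The mitochondrial transcription factor Tfam had a change of -0.54 (limma adjusted p = 0.0506, and 0.0408 with the replicate block). The call of Nrf1 held only without saline replicate 2, with 0.0518 to 0.143 in the other 5 fits. That of Ppara ended without saline replicate 1 (0.102), saline replicate 3 (0.0721) or metformin replicate 3 (0.0512).

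The genes whose 6 deviations lay closest to the mean profile of the 9 enzymes, by root mean square difference over the 6 arrays in log2 units, were Gm15186 (0.0184), the ADP/ATP carrier Slc25a5 (0.0313), the complex I subunit Ndufs4 (0.0343), Tsr2 (0.0350) and the ATP synthase subunit Atp5b (0.0370). The median over all other genes was 0.312. Among the 9 enzymes themselves, Dlst (0.0531) and Mdh2 (0.0589) lay nearest to their common profile and Ogdh (0.195) and Sucla2 (0.176) farthest.

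Facts of the whole data set touch these results. The array medians lay between 4.67 and 4.86. The share of higher genes among those called was 42.5% on the deposited values, 25.2% with arrays centred on their medians and 20.7% with quantile-normalized arrays. Over all clusters past the filter, unnamed ones included, the balance was the other way, with 5553 higher and 2221 lower. Quantile normalization shifted the all-gene median change by -0.12. Relative to that median the 9 genes had a median change of -0.47 on the deposited values, -0.47 on centred arrays and -0.34 on quantile-normalized ones, and each of the 9 stayed below 0 under these scalings. Pkd1, the transgene's target, had 7.50 ± 0.14 with metformin and 6.85 ± 0.27 with saline (SD, n = 3 per group; limma adjusted p = 0.0317), a call that ended without saline replicate 1 or 3 or metformin replicate 1 or 2 (0.0768 to 0.113).

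Markers of kidney cells moved beside the cycle enzymes, and their part in the result was not tested. Counts in the marker lists here and below stand beside 9.08% of all genes called lower and 6.71% called higher. All 15 proximal tubule markers lay past the filter, as a kidney label calls for. Of them 3 fell (Slc5a12, Slc22a8 and Acsm2) and 0 rose (limma, 12 lower and 0 higher at an unadjusted p under 0.05, and 10 lower with the replicate block), with a median of -0.75. Their mean deviation was 0.27, 0.14 and 0.53 on the saline arrays and -0.68, -0.25 and -0.02 on the metformin arrays. Metformin replicate 1 was thus lowest, as for the cycle enzymes, and it was the lowest array in 14 of the 15 markers. Of 5 thick ascending limb markers 2 fell (Kcnj1 and Cldn10, 1 with the block), with a median of -0.14. Slc12a1, first in that list, had a change of -0.06 (limma adjusted p = 0.891). Umod, uromodulin, had 18.91, 18.92 and 19.10 with saline and 18.68, 18.89 and 18.93 with metformin. Of 5 intercalated cell markers 3 fell (Atp6v0d2, Slc4a1 and Slc26a4), with a median of -0.57. Slc26a4 had a limma adjusted p = 0.0473, and 0.0665 with the block. Foxi1 in that list had a change of 0.18 and was not called.

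Fat surrounds the kidney, and brown fat is rich in cycle enzymes. Of 7 adipocyte markers tested 1 fell, Adipoq (4 with the replicate block), with a median of -1.32. Of 4 brown adipocyte markers 1 fell, Cox7a1, with a median of -1.39, and Ppargc1b in that list had a change of 0.20. Ucp1, which defines brown fat, had a change of -3.61 (limma adjusted p = 0.0805). Its saline values were 7.46, 10.29 and 4.68, highest in replicate 2. Those of Cox7a1 were 10.79, 9.90 and 10.29, lowest in replicate 2, so Cox7a1 did not follow Ucp1 among the saline arrays. The part of fat in the cycle genes' changes was not tested. Lep, Elovl3, Cox8b and Otop1 lay below the filter. The adipocyte score was 0.82, 1.09 and -0.07 on the saline arrays and -0.81 to -0.47 on the metformin arrays, and the brown adipocyte score 0.97, 1.69 and -0.33 against -0.84 to -0.71. Every metformin array lay below every saline array in both fat scores and in the mean deviation of the 9 genes. Metformin replicate 1 was the lowest array in each. Among the saline arrays the order differed. Saline replicate 2, with the most of both, was the lowest saline array for 8 of the 9 cycle enzymes. Saline replicate 3, with the least, had the highest mean deviation of the 9, and saline replicate 1 lay between the other saline arrays in each. Without saline replicate 2 the median change of the 9 genes was -0.50, and without saline replicate 3 it was -0.44.

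Of 9 macrophage markers 1 rose, Lyz2 (3 with the replicate block), with a median of 0.48, and of 6 fibroblast markers 1 rose, Col1a1, with a median of 0.71. With the block 3 fibroblast markers rose (Col1a1, Col1a2 and Col3a1) and 1 fell, Lum (-0.52), while Dcn had a change of -0.58 and passed in neither fit. Their scores overlapped between the groups, from -1.02 to 0.36 with saline and 0.08 to 0.60 with metformin for macrophages. Among the remaining marker lists, collecting duct principal cells had a median of -0.57. Aqp3 and Avpr2 fell, 2 of 6, and with the block Aqp2 too. In the same list Scnn1b (0.31) and Scnn1g (0.21) had higher means with metformin and passed in neither fit. For endothelium the median was -0.38, where Tek fell (1 of 6) and Cdh5 had a change of 0.22. For the distal convoluted tubule it was -0.21, with 0 of 4 called, 1 with the block and 2 at an unadjusted p under 0.05. Slc12a3 in that list had a change of 0.12. Podocytes had a median of -0.03 and skeletal muscle one of -0.02. In each of these 2 lists 0 of 4 were called, and 0 had an unadjusted p under 0.05 by limma. Of the erythroid list 1 gene was tested, Alas2, which fell by 0.53.

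**Figure D5:**
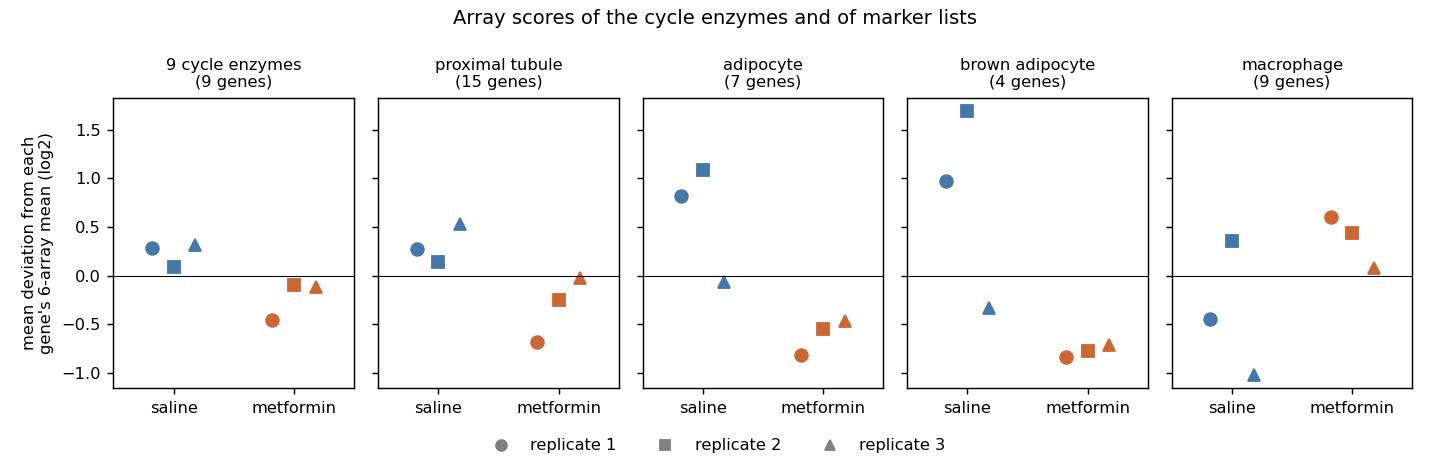
Mean deviation of each list's genes from their own 6-array mean (vertical axis, log2 units) on the 3 saline and 3 metformin arrays, for the 9 cycle enzymes and 4 marker lists. Saline replicate 2 is highest in both fat lists and lowest of saline for the cycle enzymes. Metformin replicate 1 is the lowest array for the cycle enzymes, the proximal tubule and both fat lists.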

How the data were processed

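Whole-kidney RNA from 3 saline and 3 metformin mice was hybridised to 1 single-colour array each, and the number of arrays limits the precision. The authors deposited 1 log2 value per transcript cluster and array; RMA and version 4.0 of Transcriptome Analysis Console are named in the submitters' processing notes. Values ran from 1.94 to 19.9, above the range of a usual scanner, and the sources do not say which step gave it, so log2 changes and folds may be stretched with the scale. Of 65956 clusters, 30604 had 1 gene symbol, updated through the RefSeq table of GRCm38.p6. The 33.3% of clusters with the lowest mean (up to 4.03) were left out, and the highest-mean cluster per gene was kept. With limma 3.58.1 (R 4.3.3; lmFit and eBayes, two-sided, no covariates) 22087 genes were compared, with Benjamini-Hochberg adjustment over all of them. The script was tested on simulated data. The members and lists were chosen with earlier results of these data known, so lists are described by counts and medians with no test. The rule for named genes took the members, Pkd1, and genes of each pathway list past the threshold or with the 2 smallest p. It also took the 5 genes of closest profile, marker genes past the threshold and the first 2 genes of each marker list. Several of the first marker genes are not named here. Others named were chosen after their values were seen.

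Deviations from the group means correlated at 0.118, 0.145 and 0.541 between samples of replicate numbers 1, 2 and 3. Each was over 0.1, so a fit with the replicate number as a block is given as an alternative. The main fit has no block, and its p-values do not use a pairing. Any pairing comes from the data, since the labels call the samples biological replicates and do not say what a number shares. Saline replicate 2 with metformin replicate 1 reached 0.299, above the values of replicate numbers 1 and 2. The alternatives were a fit with a replicate block, each array left out, arrays centred on their medians, quantile normalization, no filter, a stricter filter, a mean over each gene's clusters, all clusters tested, trend with robust estimation, and array weights.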

Additional observations from a re-analysis of the deposited data

How the results depend on the processing

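Across 15 alternatives each of the 9 cycle enzymes kept a change below 0 (135 of 135 values), and Cs stayed called in all 15. Much of that count was fixed beforehand. The block, the filters, the cluster mean, all clusters and trend with robust estimation cannot alter these changes, with 1 cluster per gene and balanced groups. For the 7 genes with separate groups, leaving out 1 array cannot reverse the sign. The count is therefore no measure of robustness. The number of the 9 called ran from 1 to 4 with 1 array left out and was 5 after median-centring, after quantile normalization and with array weights. The genes added were Fh1 (median-centring, array weights), Mdh2 (all 3) and Dlst (quantile normalization). A stricter filter on low values added Mdh2. The median change of the 9 ran from -0.50 to -0.34 with 1 array left out. The number of all genes called was 842 to 3961 with 1 array left out and 7774 (5553 higher, 2221 lower) when all clusters past the filter were tested, against 1482 higher and 2006 lower among the genes. The calls in the 6 related lists, 29 in all, numbered 6 to 32 with 1 array left out. The median change of all genes was 0.02, ran from -0.01 (without metformin replicate 1) to 0.03 with 1 array left out, and turned to -0.07 after median-centring and to -0.10 after quantile normalization. With the replicate block 3 of the 9 were called and 4370 of all genes, and beyond the genes named in the report it changed no other call in the members or the 6 lists. Of the marker genes it changed further calls, given by list in the report. The causes of these differences were not tested. The lowest mean of the 9 genes lay at percentile 83.1 of the genes tested.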
